A study of Homo sapiens with 45 samples.

Results

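FOXA1 knockdown and estrogen receptor knockdown were compared directly in estradiol-treated MM330 cells, siFOXA1_E2 minus siER_E2, over all genes. MM330 (MDA MB 330) is an invasive lobular breast carcinoma line. The comparison used 6 of the 45 libraries of the series, chosen by their labels: 3 siFOXA1_E2 libraries, transfected with siRNA against FOXA1, and 3 siER_E2 libraries, transfected with siRNA against the estrogen receptor, whose gene is ESR1. No control library entered the difference. Cells of both groups were kept in charcoal-stripped serum for 3 days, transfected, given 100 pM estradiol (E2) 24 h later and collected after another 24 h. Both compared groups thus carried a transient knockdown and received hormone. Cells with a non-targeting siRNA and either 0.01% ethanol (siNT) or E2 (siNT_E2) served as reference levels. The same knockdown groups existed in the lobular line MM134 and the ductal line HCC1428. Nothing in the labels tells if a group's 3 libraries are independent cultures, and p-values therefore measure the spread between these libraries, which may be technical.

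The estrogen receptor is a nuclear receptor that, once it binds estradiol, activates genes from estrogen response elements in the genome. FOXA1 is a forkhead factor that opens chromatin, and in luminal breast cells the receptor binds many of its sites beside FOXA1. FOXA1 also works with other factors of the luminal lineage, so loss of FOXA1 and loss of the receptor need not change the same genes.

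Totals were 28301093 to 30689361 counts in the siER_E2 libraries and 21043426 to 35896696 in the siFOXA1_E2 libraries. The library siFOXA1_E2 replicate 1 stood apart. It had the fewest counts and 18829 genes with a count against 23720 to 25193 in the other 5. Its median absolute log2 distance from the other siFOXA1_E2 libraries was 0.233, and the corresponding value was 0.0886 to 0.143 for the other MM330 libraries. The main counts and some values of genes and lists are therefore given with and without it. Other values are given with all libraries only and may also depend on it. The library siER_E2 replicate 3 had a processed pseudogene share of 0.346%, against 0.123% to 0.132% in the other 5. KRT8, KRT18, KRT19, GATA3 and EPCAM, markers of luminal epithelium, were present in all 6 libraries at 406 CPM or more. CPM are counts scaled to library size. ERBB2 was at 8780 to 11900 CPM. Of the fibroblast, immune and endothelial markers, 5 of 7, 3 of 7 and 3 of 5 were at 0 in all 6 libraries. Summed fibroblast markers, nearly all of it COL1A1, were 22.9 to 27.4 CPM in siER_E2 and 33.1 to 36.4 in siFOXA1_E2. Immune markers summed to 0.407 to 0.607 and 0.804 to 1.52 CPM, and endothelial markers, led by VWF, to 1.54 to 2.14 and 8.71 to 10.6. PTPRC, CD3D, CD3E, COL1A2, COL3A1, DCN, LUM, PDGFRA, CDH5, KDR and TEK had no counts. In such bulk samples fewer cells of a type and less RNA per cell cannot be told apart.

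Each siRNA lowered its own target. ESR1 (chr6:151656691-152129619, GRCh38, GENCODE) was at 25.7, 18.2 and 20.6 CPM in the siER_E2 libraries and at 205, 196 and 202 CPM in the siFOXA1_E2 libraries. The groups did not overlap, and the log2 difference was 3.23 ± 0.08 (SE, n = 3 per group, adjusted p = 9.9e-15, edgeR quasi-likelihood test with Benjamini-Hochberg adjustment). In the reference groups ESR1 averaged 289 CPM (siNT) and 275 CPM (siNT_E2). FOXA1 (chr14) was at 153, 119 and 130 CPM in siFOXA1_E2 and at 574, 540 and 545 CPM in siER_E2, a log2 difference of -2.04 ± 0.07 (adjusted p = 2.3e-13). Its mean was 486 CPM in siNT_E2. Some FOXA1 RNA was left, and FOXA1-depleted cells kept most of their ESR1 RNA: against siNT_E2, ESR1 differed by log2 -0.45 in siFOXA1_E2 and by -3.68 in siER_E2. MDC1, the third gene targeted in the series but in neither group here, was at 119, 120 and 118 CPM in siFOXA1_E2 and 105, 98.5 and 92.7 in siER_E2, a log2 difference of 0.27 ± 0.06 (adjusted p = 0.00088). Both groups were below the MDC1 mean of 195 CPM in siNT_E2, by log2 -0.71 in siFOXA1_E2 and -0.98 in siER_E2.

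Differences between the knockdowns were widespread. Of 17834 genes tested, 8190 were called at an adjusted p below 0.05 (45.9%): 4112 were higher in siFOXA1_E2 (23.1%) and 4078 were lower (22.9%). Calls of 2-fold or more were fewer, with 1161 genes higher (6.51%) and 766 lower (4.3%), and without the filter on low counts the numbers were 1304 and 1254. At 4-fold or more there were 413 and 234. The median log2 difference over all tested genes was -0.02. The 6 libraries did not overlap between groups for 9036 genes (50.7%), of which 7714 were called. Without siFOXA1_E2 replicate 1, 8464 of 18217 tested genes were called (46.5%), 4263 higher (23.4%) and 4201 lower (23.1%). The fits shared 7469 calls of the same sign, 91.2% of the calls with all libraries and 88.2% of those without the replicate, and no gene called in both changed sign.

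**Figure D1:**
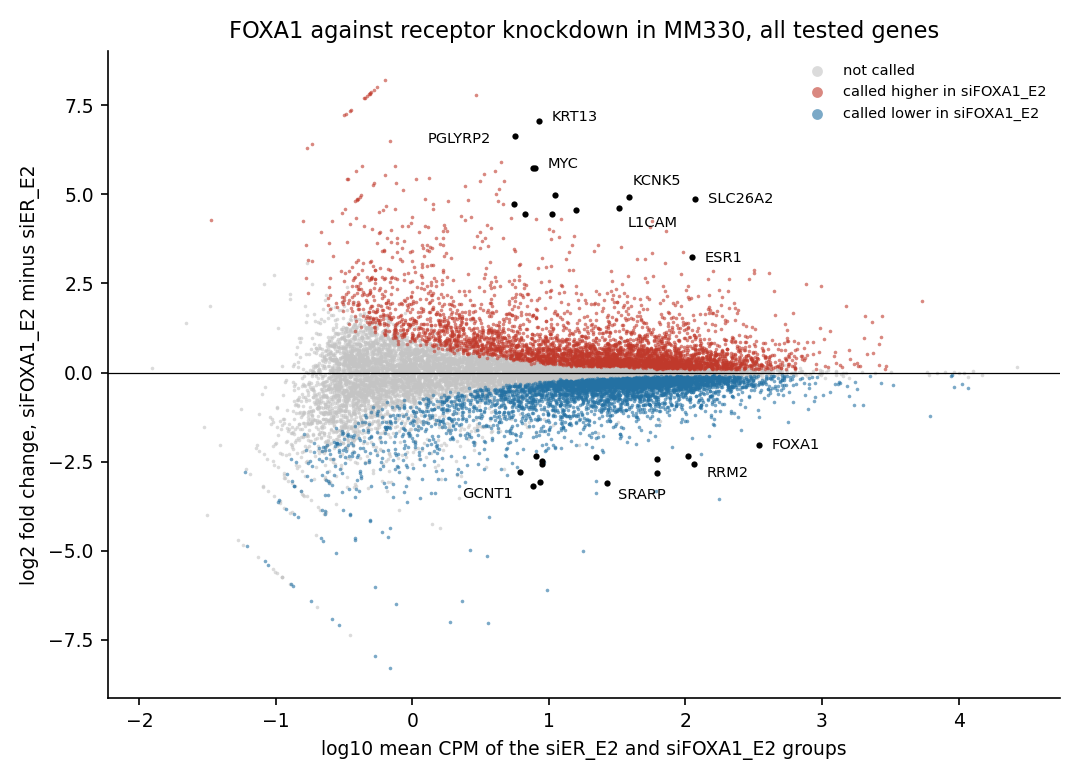
Log2 fold change of siFOXA1_E2 minus siER_E2 (vertical axis) against the log10 mean CPM of both groups (horizontal axis) for the 17834 tested genes in MM330. Red points are genes called higher, blue points genes called lower, and black points the 12 highest and 12 lowest named genes with ESR1 and FOXA1. The named higher genes lie between log2 4.45 and 7.05 and the named lower genes between -3.18 and -2.34, so the extreme differences are larger on the upper side.

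The genes with the largest excess after FOXA1 knockdown included several with almost no RNA after receptor knockdown, such as KRT13 and MYC, and others that kept some, such as SLC26A2, KCNK5 and L1CAM. KRT13 (chr17:41500981-41505705), a keratin of stratified epithelia and a known estrogen target, was at 0.0714, 0.197 and 0.094 CPM in siER_E2, from 11 counts in all, and at 13, 16.9 and 20.1 CPM in siFOXA1_E2. The log2 difference was 7.05 ± 0.45 (adjusted p = 1.6e-09), and siNT_E2 averaged 2.52 CPM. The receptor-depleted libraries lay around the siNT mean of 0.0962 CPM, and all 3 FOXA1-depleted libraries lay above the siNT_E2 mean.

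PGLYRP2, a peptidoglycan amidase, was at 0, 0.229 and 0.094 CPM in siER_E2 (10 counts) and 9.46, 12.1 and 12.2 CPM in siFOXA1_E2 (log2 6.62 ± 0.47, and 7.70 without siER_E2 replicate 2). SYNPO2L, an actin-associated protein of the synaptopodin family, was at 0.214, 0.295 and 0.313 CPM against 12.2, 15.8 and 16.7 CPM (log2 5.73 ± 0.29). NPY1R, a neuropeptide Y receptor induced by estrogen in breast cancer cells, was at 0.714, 0.623 and 0.689 CPM against 19, 21.2 and 23.9 CPM (log2 4.98 ± 0.23). Libraries that do not overlap were a condition for naming the 12 highest and 12 lowest genes, so their separation is no further result. PGLYRP2, SYNPO2L and NPY1R all averaged more in siFOXA1_E2 than in siNT_E2, where their means were 2.86, 1.11 and 4.12 CPM.

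MYC, the growth-promoting transcription factor, was at 0.5, 0.262 and 0.125 CPM in siER_E2 and 15.1, 14.2 and 17.2 CPM in siFOXA1_E2, a log2 difference of 5.73 ± 0.21 (adjusted p = 9.2e-13). Its mean was 20.3 CPM in siNT_E2 and 0.456 CPM in siNT. The FOXA1-depleted libraries were thus nearer to the E2-treated control, and the receptor-depleted libraries nearer to the vehicle control. PDZK1, a scaffold protein and a standard estrogen-induced gene, averaged 0.401 CPM in siER_E2, 10.6 in siFOXA1_E2 and 17.3 in siNT_E2 (log2 4.72 ± 0.23). Unlike MYC, its siER_E2 mean was above that of siNT, 0.0664 CPM.

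SLC26A2, a sulfate transporter, was the most abundant of the 12 highest genes. It was at 8.36, 8.23 and 7.05 CPM in siER_E2 and at 194, 251 and 241 CPM in siFOXA1_E2 (log2 4.86 ± 0.11, adjusted p = 7.6e-15), and its siNT_E2 mean was 66.4 CPM. KCNK5, a potassium channel, was at 2.32, 2.72 and 2.32 CPM against 66.2, 74.7 and 81.8 CPM (log2 4.92 ± 0.12), with 28.9 CPM in siNT_E2. L1CAM, a neural cell adhesion molecule, was at 2.71, 3.21 and 1.79 CPM against 55.4, 71.2 and 61.8 CPM (log2 4.61 ± 0.16), with only 5.65 CPM in siNT_E2. These 3 genes were all above the E2-treated control after FOXA1 knockdown. SGK1, a kinase of hormone-regulated ion transport, belonged to the same group, with 30.1 CPM in siFOXA1_E2, 1.28 in siER_E2 and 11.8 in siNT_E2 (log2 4.56 ± 0.12). RASGRP1 (log2 4.46), an activator of Ras, and C5AR2 (log2 4.45), a complement receptor, completed the 12. For these last genes siFOXA1_E2 held 20.2 and 12.7 CPM and siNT_E2 27 and 11.4 CPM.

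The genes lowest after FOXA1 knockdown were, with the exception of 2 S-phase genes, also genes whose RNA E2 had lowered. GCNT1, a glycosyltransferase that branches O-glycans, was at 13.4, 13.6 and 14.1 CPM in siER_E2 and 1.88, 1.27 and 1.44 CPM in siFOXA1_E2 (log2 -3.18 ± 0.12, adjusted p = 1.3e-12). SRARP, a steroid receptor associated protein, was at 45.1, 50.9 and 47.3 CPM against 8.24, 4.76 and 4.36 CPM (log2 -3.09 ± 0.14). S100P, a calcium-binding protein, was at 13.7, 17.6 and 15.2 CPM against 1.69, 1.39 and 2.32 CPM (log2 -3.07 ± 0.15). Libraries that do not overlap were a condition for choosing these genes. The siNT_E2 means of these genes were 10.6, 30.4 and 8.05 CPM, between the knockdowns in each case.

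BCAS1, a gene often amplified in breast cancer, was at 106, 111 and 110 CPM in siER_E2 and at 21.2, 12.9 and 13.2 CPM in siFOXA1_E2 (log2 -2.81 ± 0.11). Its highest siFOXA1_E2 value was that of replicate 1, and without that library the log2 difference was -3.06. PRR15 averaged 174 CPM in siER_E2 and 34.2 CPM in siFOXA1_E2 (log2 -2.35 ± 0.06). LDLRAD4, an inhibitor of TGF-beta signalling, averaged 105 and 19.5 CPM (log2 -2.43 ± 0.06). Their siNT_E2 means of 82.7 and 44.5 CPM lay between the knockdowns. KRT4 and CSTA, a keratin and a protease inhibitor of stratified epithelia, were lower by log2 -2.56 and -2.49. For both, replicate 1 was the highest siFOXA1_E2 library (4.47 and 4.66 CPM against 1.64 to 1.93), and without it the differences were -3.10 and -3.04. RND1, a small GTPase (log2 -2.78), and PALMD, a paralemmin family member (log2 -2.34), were also among the 12. The S-phase genes RRM2 (log2 -2.58) and CDC6 (log2 -2.38) are described with their group.

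**Figure D2:**
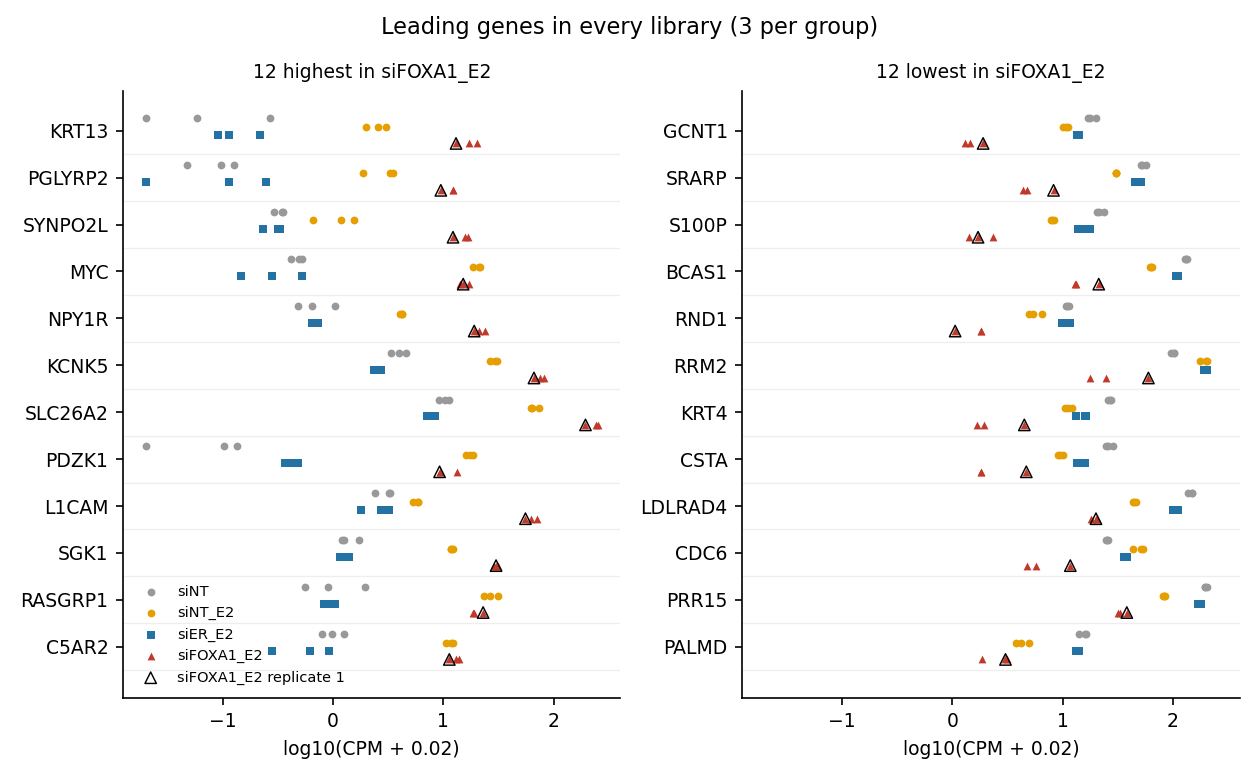
CPM in each library, as log10(CPM + 0.02), of the 12 highest genes (left) and 12 lowest genes (right) of siFOXA1_E2 minus siER_E2, with 3 libraries per group. Triangles are siFOXA1_E2, with replicate 1 outlined, squares siER_E2, and circles the siNT (grey) and siNT_E2 (orange) references. For most of the higher genes the siER_E2 squares sit near the grey siNT points, as for MYC (0.296 and 0.456 CPM) but not PDZK1 (0.401 and 0.0664 CPM). For RRM2, KRT4 and CSTA replicate 1 is the siFOXA1_E2 library nearest to siER_E2.

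Promoters of 3 of the highest and the 3 lowest of these genes are shown because the siRNAs targeted factors with known DNA motifs. Each of these genes has an entry in the RefSeq promoter table (GRCh38.p14). KRT13 and MYC had larger differences than NPY1R, but their promoters are not shown. Each sequence holds the 250 bases before the annotated start, written toward the gene. Capitals mark the receptor's GGTCA arm on either strand, which reads TGACC on the reverse strand. The windows are chr19:15479502-15479751, minus strand for PGLYRP2, chr10:73656030-73656279, minus strand for SYNPO2L, chr4:163332597-163332846, minus strand for NPY1R, chr9:76393619-76393868, plus strand for GCNT1, chr1:16003986-16004235, plus strand for SRARP and chr4:6693628-6693877, plus strand for S100P.
PGLYRP2: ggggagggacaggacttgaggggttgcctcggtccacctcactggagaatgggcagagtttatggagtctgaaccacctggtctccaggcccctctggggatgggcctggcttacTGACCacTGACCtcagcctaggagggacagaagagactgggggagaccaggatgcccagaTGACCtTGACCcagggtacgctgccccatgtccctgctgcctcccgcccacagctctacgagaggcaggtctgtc
SYNPO2L: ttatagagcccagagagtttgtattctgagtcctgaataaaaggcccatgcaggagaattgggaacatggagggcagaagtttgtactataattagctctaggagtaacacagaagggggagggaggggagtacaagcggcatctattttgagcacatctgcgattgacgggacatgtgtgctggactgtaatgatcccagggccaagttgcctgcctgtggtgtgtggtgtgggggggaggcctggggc
NPY1R: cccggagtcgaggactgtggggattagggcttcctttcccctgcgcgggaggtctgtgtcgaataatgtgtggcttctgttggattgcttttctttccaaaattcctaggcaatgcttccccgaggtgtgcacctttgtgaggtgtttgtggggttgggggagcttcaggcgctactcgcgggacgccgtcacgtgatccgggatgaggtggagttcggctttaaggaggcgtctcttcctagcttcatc
GCNT1: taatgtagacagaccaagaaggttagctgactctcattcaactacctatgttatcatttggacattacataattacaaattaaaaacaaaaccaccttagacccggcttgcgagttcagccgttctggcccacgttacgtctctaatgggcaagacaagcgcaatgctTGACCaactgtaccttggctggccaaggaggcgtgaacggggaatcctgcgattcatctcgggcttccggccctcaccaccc
SRARP: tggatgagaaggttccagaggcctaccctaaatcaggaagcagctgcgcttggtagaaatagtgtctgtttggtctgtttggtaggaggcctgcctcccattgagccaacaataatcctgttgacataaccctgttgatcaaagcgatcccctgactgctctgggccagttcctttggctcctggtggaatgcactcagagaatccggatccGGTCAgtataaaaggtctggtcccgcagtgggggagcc
S100P: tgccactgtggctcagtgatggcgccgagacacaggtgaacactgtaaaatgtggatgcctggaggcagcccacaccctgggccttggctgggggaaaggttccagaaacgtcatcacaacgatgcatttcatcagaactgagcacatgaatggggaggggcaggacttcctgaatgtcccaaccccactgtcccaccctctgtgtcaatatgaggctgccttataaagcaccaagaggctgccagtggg

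The PGLYRP2 window held 4 GGTCA arms, 135, 128, 75 and 69 bases before the start, the GCNT1 window 1, at 82 bases, and the SRARP window 1, at 38 bases. The other windows held none, and none of the 6 held a full element, GGTCANNNTGACC. None held the forkhead letters TGTTTAC, the variant TGTTTGC or the variant TATTTAC, all searched on both strands. Over all 27305 promoters of the table, 33.1% held a GGTCA arm, 8.29% a forkhead motif and 0.0439% a full element. Among tested genes with an entry (11055), the shares were 30.3%, 5.28% and 0.0181%. The arm was present in 31.2% of the 706 promoters of genes called 2-fold or more higher and in 29.9% of the 471 of genes 2-fold or more lower. Forkhead letters were present in 8.78% and 6.37%, and a full element in 1 promoter of the higher genes and none of the lower. These are matches of letters in 250 bases, and sites farther from the start were not searched.

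Estrogen-induced targets were mostly higher when FOXA1 rather than the receptor was depleted. Of 59 tested members of the list, 43 were higher and 7 lower, with a median log2 of 1.03, against 23.1%, 22.9% and -0.02 over all genes. These values over all genes are the background for every list that follows. Without siFOXA1_E2 replicate 1, 42 were higher and 8 lower (median 1.16). GREB1, an estrogen-induced growth regulator, was at 311, 300 and 313 CPM in siER_E2 and 1500, 1660 and 1810 CPM in siFOXA1_E2 (log2 2.43 ± 0.06, adjusted p = 7e-15). The siFOXA1_E2 range enclosed the siNT_E2 mean of 1550 CPM, and the siER_E2 mean of 308 CPM was close to the 336 CPM of siNT. TFF1, a secreted trefoil peptide and classical receptor target, was at 342, 273 and 265 CPM against 1160, 772 and 863 CPM (log2 1.67 ± 0.11, adjusted p = 3.5e-09). Here replicate 1 was the highest siFOXA1_E2 library, and without it the difference was log2 1.48. Unlike GREB1, TFF1 stayed far under its siNT_E2 mean of 4090 CPM in both knockdowns.

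The progesterone receptor gene PGR was at 0.286, 0.197 and 0.251 CPM in siER_E2 and 5.04, 3.94 and 6.34 CPM in siFOXA1_E2 (log2 4.37 ± 0.29), around its siNT_E2 mean of 4.17 CPM. CXCL12, a chemokine, had no count in the siER_E2 libraries and 1.04, 0.533 and 0.545 CPM in siFOXA1_E2. Against the 3 counts that a zero over the group allows (0.0332 CPM, counting error only), CXCL12 was at least 21.2-fold higher. CELSR2, an adhesion receptor, averaged 103 CPM in siER_E2 and 709 CPM in siFOXA1_E2 (log2 2.78 ± 0.05), and SIAH2, a ubiquitin ligase, 75.9 and 555 CPM (log2 2.87 ± 0.06). SLC7A5, an amino acid transporter, averaged 68.9 and 339 CPM (log2 2.30 ± 0.05), and RAB31, a vesicle GTPase, 24 and 117 CPM (log2 2.29 ± 0.05). Other members with large differences were CTSD, the protease cathepsin D (log2 2.49), the fatty acid elongase ELOVL2 (2.43) and the neurotrophic factor receptor GFRA1 (4.72). The 7 lower members included MCM2, a replication helicase subunit (log2 -1.68 ± 0.21), and CCND1, cyclin D1, which was at 2760, 2560 and 2510 CPM in siER_E2 and 1670, 1210 and 1290 CPM in siFOXA1_E2 (log2 -0.91 ± 0.08). XBP1, AREG, RBBP8, SERPINA1 and UGCG were the others. Estrogen-repressed targets went both ways, 12 of 24 higher and 9 lower (median 0.29). PSCA, a surface antigen, was lower (128 and 30.2 CPM, log2 -2.09 ± 0.07), and PDCD4, a translation inhibitor, was higher (398 and 731 CPM, log2 0.88 ± 0.05).

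The measured E2 response of MM330, siNT_E2 minus siNT, shares no library with the comparison and was used to sort the same genes. E2 raised 2437 of the 17834 genes (13.7%) and lowered 2253 (12.6%). Among the raised genes, 906 were higher in siFOXA1_E2 than in siER_E2 (37.2%) and 901 were lower (37%), against 19.6% and 17.3% of the 13144 genes without an E2 call. Without siFOXA1_E2 replicate 1, 1014 of 2894 raised genes were higher and 1116 lower. The set of raised genes also differed in that fit, so these counts are not of the same genes. The balance differed by size of response: of 425 genes raised 2-fold or more by E2, 263 were higher (61.9%) and 70 lower (16.5%). Of 269 genes lowered 2-fold or more, 53 were higher (19.7%) and 130 lower (48.3%). Without siFOXA1_E2 replicate 1 the counts for 2-fold responses were 273 and 87 of 486 raised genes and 54 and 152 of 329 lowered genes. Of the 901 raised genes that were lower after FOXA1 knockdown, 107 belonged to the lists of mitosis, DNA replication, G1 to S switch and DNA damage response, as did 19 of the 70 raised 2-fold or more. E2 raised most members of these lists: 28 of 38 tested for mitosis and 43 of 43 for DNA replication. It raised 19 of 28 for the G1 to S switch and 27 of 36 for the damage response. The share of these lists among all raised genes was not computed. Across the 17834 genes, which are not independent replicates, Pearson's r between the E2 response and siFOXA1_E2 minus siER_E2 was 0.281 and Spearman's rho 0.0584.

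**Figure D3:**
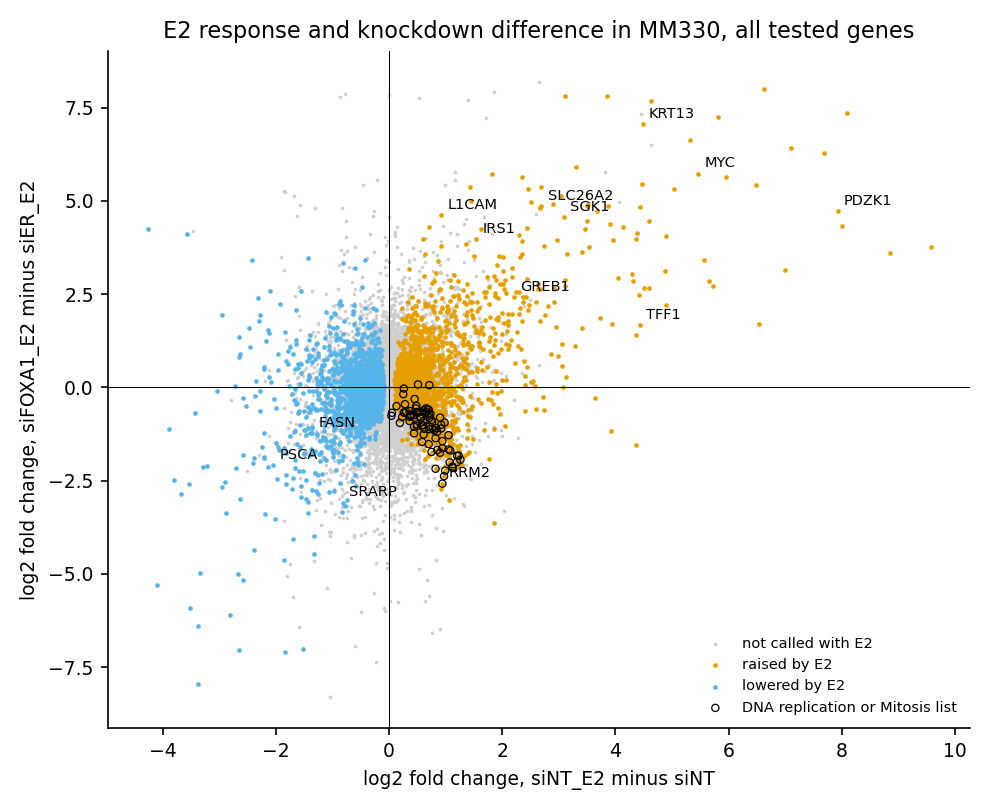
Log2 fold change of siFOXA1_E2 minus siER_E2 (vertical axis) against the E2 response, siNT_E2 minus siNT (horizontal axis), for the 17834 tested genes of MM330. Orange points were raised and blue points lowered by E2, and open circles are members of the DNA replication or mitosis lists. Strongly raised genes such as MYC, PDZK1 and KRT13 lie high on the right, and most open circles lie right of 0 and under the horizontal zero line.

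Genes of DNA replication and cell division formed the most uniform lower group. In the DNA replication list 41 of 43 members were lower, with a median log2 of -1.19, and in the mitosis list 37 of 38 were lower (median -0.72). The G1 to S switch had 19 of 28 members lower and 5 higher (median -0.63), and the DNA damage response 27 of 36 lower and 3 higher (median -0.43). RRM2, a subunit of ribonucleotide reductase, was at 202, 203 and 189 CPM in siER_E2 and 59.8, 17.6 and 24.5 CPM in siFOXA1_E2 (log2 -2.58 ± 0.26, adjusted p = 3.4e-07), and without siFOXA1_E2 replicate 1 the difference was -3.21. CDC6, which loads the replicative helicase, was at 38.2, 37.4 and 35.8 CPM against 11.7, 4.72 and 5.65 CPM (log2 -2.38 ± 0.19). GINS2, a part of that helicase, was at 10.2, 10.7 and 10.5 CPM against 2.45, 2.13 and 2.50 CPM (log2 -2.15 ± 0.09). The groups were apart for all 3 genes, which was a condition for naming RRM2 and CDC6. Replicate 1 was closest to siER_E2 for RRM2 and CDC6 but not for GINS2, and without it the CDC6 difference was -2.82.

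The place of the receptor-depleted cells between the controls differed by gene. RRM2 averaged 198 CPM in siER_E2, near the 193 of siNT_E2 and above the 100 of siNT. CDC6 averaged 37.1 CPM in siER_E2, between 49.4 in siNT_E2 and 25.2 in siNT, and GINS2, at 10.5 CPM, was nearer to the 7.49 of siNT than to the 16.3 of siNT_E2. The median log2 difference of siER_E2 from siNT_E2 over the DNA replication list was -0.34. UHRF1, which couples DNA methylation to replication, was lower by log2 -2.23, MCM5, a helicase subunit, by -1.73 and MCM6 by -2.18. Of the switch genes, E2F2 (log2 -2.21), CDC25A (-2.10), CCNE1 (-2.02) and E2F1 (-1.78), which drive entry into S phase, were lower. For E2F2 the difference was -2.74 without siFOXA1_E2 replicate 1. CDKN2B (1.57 ± 0.12), CDKN1C (1.35) and CDKN1A (0.55), which encode inhibitors of cyclin-dependent kinases, were higher. Mitotic members were lower by less: FOXM1, the forkhead factor of the mitotic programme, differed by log2 -1.46, KIF2C, a kinesin, by -1.23 and AURKB, a mitotic kinase, by -1.10. MKI67, the proliferation marker Ki-67, was the mitotic member that was not called: it was at 230, 211 and 209 CPM against 317, 173 and 190 CPM (log2 0.06 ± 0.15), and without siFOXA1_E2 replicate 1 it was lower (log2 -0.25, adjusted p = 0.0015). Among repair genes, BRCA2, which acts in homologous recombination, was lower (log2 -1.52), and XRCC5, a Ku subunit of end joining, was higher (104 and 169 CPM, log2 0.69 ± 0.05). Replicate 1 of siFOXA1_E2 differed least from siER_E2 in this group: its median log2 distance from the siER_E2 mean was -0.81 for DNA replication, against -1.56 and -1.28 in the other libraries, and -0.35 for mitosis, against -1.01 and -0.89. Without it the list medians were -1.41 and -0.95, with 41 and 37 lower members. The part of this library's lower number of detected genes in these values was not tested.

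Luminal keratins were higher after FOXA1 knockdown, and genes of luminal transcription factors went both ways. KRT8 was at 2190, 2180 and 2120 CPM in siER_E2 and 7900, 9100 and 9140 CPM in siFOXA1_E2 (log2 2.01 ± 0.05, adjusted p = 1.6e-14), against 3290 CPM in siNT_E2. KRT18, its partner, was at 1240, 1320 and 1270 CPM against 2980, 3590 and 3590 CPM (log2 1.41 ± 0.05), and KRT19 averaged 1390 and 4140 CPM (log2 1.58 ± 0.04). The prolactin receptor gene PRLR averaged 225 and 688 CPM (log2 1.61 ± 0.04). GATA3, a luminal transcription factor, did not pass the test: it was at 524, 466 and 485 CPM in siER_E2 and 443, 522 and 531 CPM in siFOXA1_E2 (log2 0.02 ± 0.06, adjusted p = 0.81), with overlapping libraries. SPDEF, an ETS factor of secretory epithelium, was lower (774, 800 and 787 CPM against 431, 458 and 446 CPM, log2 -0.82 ± 0.04), as were MLPH, a melanosome transport protein typical of luminal tumours (log2 -0.83 ± 0.04), EHF (-0.74) and ELF3 (-0.64). The factor genes ELF5 (log2 1.08), TBX3 (0.63), TRPS1 (0.56), TFAP2A (0.43) and GRHL2 (0.09) were higher. Over the luminal list 19 of 32 members were higher and 7 lower (median 0.36). Epithelial adhesion genes were higher in 19 of 29 and lower in 4 (median 0.25), including the desmosomal genes PKP1 (log2 2.08) and DSC2 (1.40 ± 0.05) and the tight junction gene TJP3 (1.24 ± 0.05). CDH1, the E-cadherin gene that lobular tumours typically lose, was at 703 to 714 CPM in siER_E2 and 705 to 745 CPM in siFOXA1_E2 (log2 0.04 ± 0.03, adjusted p = 0.3).

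Basal and squamous genes were mostly higher after FOXA1 knockdown, at levels that ranged widely. Of 22 tested members 19 were higher and 1 lower (median log2 1.45), and without siFOXA1_E2 replicate 1, 21 were higher and 1 lower (median 1.69). TP63, the master factor of basal cells, averaged 0.765 CPM in siER_E2 and 15.3 CPM in siFOXA1_E2 (log2 4.31 ± 0.29), against 0.511 in siNT and 0.564 in siNT_E2. The integrin gene ITGB4 averaged 330 and 446 CPM (log2 0.43 ± 0.04) and CDH3, P-cadherin, 58 and 85.5 CPM (log2 0.56 ± 0.05). LAMB3, a laminin chain, was at 14.4, 17 and 14.6 CPM against 74.4, 99.5 and 92 CPM (log2 2.53 ± 0.11), TRIM29 at 7.32, 8.52 and 8.87 CPM against 37.7, 39 and 37 CPM (log2 2.20 ± 0.09), and KRT15 at 8.04, 7.87 and 6.71 CPM against 33.8, 36.1 and 40.8 CPM (log2 2.30 ± 0.12). The 3 genes were apart in all libraries, and LAMB3 and TRIM29 were also far above their siNT_E2 means of 19.8 and 11 CPM. S100A8 and S100A9, the calprotectin subunits, were nearly absent in siER_E2. S100A8 was at 0, 0 and 0.0627 CPM against 4.19, 6.97 and 6.34 CPM, and S100A9, with no count in siER_E2, was at least 30.2-fold higher against the same 3-count limit. Basal keratins KRT5, KRT6A, KRT14 and KRT17 had too few counts to be tested, and SOX9 was the lower member (log2 -0.66 ± 0.14). In the mesenchymal list 6 of 13 tested genes were higher and 3 lower. TNC, a matrix glycoprotein, averaged 1.17 and 23.4 CPM (log2 4.31 ± 0.18), SPARC 0.913 and 10.1 CPM (3.47 ± 0.22) and VIM, vimentin, 7.28 and 25.8 CPM (1.82 ± 0.10). CCN2 and CCN1, targets of YAP signalling, were lower (log2 -2.50 ± 0.66 and -1.36). CCN2 had few counts, averaging 0.823 CPM in siER_E2 and 0.131 CPM in siFOXA1_E2. Its difference was -2.02 without siFOXA1_E2 replicate 1 and -3.20 without siFOXA1_E2 replicate 3. The median of that list was 0.50 with all libraries, 0.21 without siFOXA1_E2 replicate 1, 0.75 without replicate 2 and 0.90 without replicate 3. It was 0.30 with the replicate number as a block, 0.34 in libraries with a lower pseudogene share and -0.03 with limma-voom, so its sign depended on the method. The collagen gene COL5A1, kept in the fibroblast list, averaged 5.45 and 62.4 CPM (log2 3.52 ± 0.10). The defining fibroblast genes COL1A2, COL3A1, DCN and LUM were at 0 in all 6 libraries and COL1A1 was not. The part of the summed fibroblast and endothelial markers given above in these differences was not tested.

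Nuclear receptors and their cofactors were higher more often than the 23.1% of all genes, and their lower shares were near the 22.9% of all genes. Of 30 receptors tested, 15 were higher and 6 lower (median log2 0.41). RARA and RARG, retinoic acid receptors, were higher by log2 0.93 and 0.95, and PPARD was lower by log2 -0.69. Androgen-responsive and apocrine genes went both ways, 11 of 26 higher and 12 lower (median -0.11): CLCA2, a chloride channel regulator, averaged 0.121 and 4.72 CPM (log2 5.23 ± 0.49), and PIP and FKBP5 were lower (log2 -1.60 and -0.98). Of 31 coactivators and corepressors, 17 were higher and 8 lower. NRIP1, an estrogen-induced corepressor, averaged 43.4 and 135 CPM (log2 1.64 ± 0.05), and TLE1, a Groucho corepressor that binds forkhead factors, 40.8 and 107 CPM (log2 1.39 ± 0.04). Forkhead genes other than FOXA1 had 7 of 25 higher and 6 lower, shares near the 23.1% and 22.9% of all genes, with FOXN3 (log2 0.90) and FOXO3 (0.55) higher and FOXP4 (-0.74) lower. FOXA2 and FOXA3, the closest relatives of FOXA1, had too few counts to be tested.

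Genes of insulin-like growth factor signalling were higher, 8 of 12 tested members against 2 lower (median log2 0.60). IRS1, the adaptor that carries the receptor signal, was at 9.79, 8.29 and 7.90 CPM in siER_E2 and 115, 148 and 146 CPM in siFOXA1_E2 (log2 3.98 ± 0.11, adjusted p = 3.4e-14), and its siNT_E2 mean was 25.5 CPM. The receptor gene IGF1R averaged 187 and 373 CPM (log2 1.00 ± 0.04), IRS2 14.6 and 39.4 CPM, and the adaptor GRB10 6.07 and 28 CPM (log2 2.20 ± 0.11). IRS1 stood above the control after FOXA1 knockdown, and IGF1R, at 373 CPM, below its siNT_E2 mean of 454 CPM. In the EGFR family 5 of 16 were higher and 8 lower (median -0.25), and the higher count was 2 without siER_E2 replicate 1 and 3 without siER_E2 replicate 2, siFOXA1_E2 replicate 2 or siFOXA1_E2 replicate 3. ERBB2, abundant in this line, was at 11500, 11900 and 11900 CPM in siER_E2 and 8780, 9800 and 9530 CPM in siFOXA1_E2 (log2 -0.33 ± 0.03, adjusted p = 3e-07), ERBB3, its usual partner, was lower by the same log2 value, and the feedback inhibitor ERRFI1 was higher (log2 1.47). WNT genes had 12 of 25 higher and 3 lower (median 0.29), including WNT4, an estrogen-induced ligand of lobular carcinoma cells, at 0.466 and 6.38 CPM (log2 3.77 ± 0.22), and the lower antagonist DKK1 (log2 -2.49 ± 0.52, and -3.21 with limma-voom).

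Leading genes of fatty acid synthesis were lower after FOXA1 knockdown, although their list as a whole went both ways. FASN, fatty acid synthase, was at 8530, 8570 and 8750 CPM in siER_E2 and 3660, 3770 and 3660 CPM in siFOXA1_E2 (log2 -1.22 ± 0.03, adjusted p = 1.6e-14). SREBF1, its main transcriptional activator, averaged 1920 and 1220 CPM (log2 -0.66 ± 0.04), FADS2, a desaturase, 359 and 185 CPM (log2 -0.96 ± 0.05), and SCD 10600 and 7950 CPM (log2 -0.41). FASN averaged 7670 CPM in siNT and 2980 CPM in siNT_E2, so its siFOXA1_E2 level was nearer to the E2-treated control and its siER_E2 level was above both controls. Over the list 10 of 21 genes were lower and 6 higher (median -0.11). Cholesterol synthesis had 15 of 25 lower and 4 higher (median -0.29), among them EBP, a sterol isomerase (log2 -0.82), and SQLE, squalene epoxidase (-0.36). Of 33 genes of the unfolded protein and amino acid stress responses, 16 were lower and 7 higher (median -0.15), with TRIB3 (-0.92) and the secretory factor CREB3L4 (-0.99) lower and DDIT4 (1.27) higher. The higher share was near the 23.1% of all genes. Heat shock genes were lower in 12 of 20 and higher in 4. The higher ones were the small heat shock genes CRYAB, HSPB8 (66.4 and 228 CPM, log2 1.78 ± 0.07) and HSPB1 (0.52) and the cochaperone BAG3 (0.42). CRYAB had few counts, averaging 0.0879 CPM in siER_E2 and 0.78 CPM in siFOXA1_E2 (log2 3.07 ± 0.80). Its difference was 4.36 without siER_E2 replicate 2 and 2.67 without siFOXA1_E2 replicate 1. Ribosome biogenesis genes were lower in 12 of 30 and higher in 3 (median -0.11).

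Secreted, hypoxia and interferon genes completed the survey of lists. Mucins and secreted proteins had 13 of 22 higher and 4 lower (median 0.47): MUCL1, a small mucin, averaged 24.7 and 69.2 CPM (log2 1.49 ± 0.05), and AGR2, a disulfide isomerase of secretory cells, 1240 and 802 CPM (log2 -0.63 ± 0.05). TFF3 was at 55.6, 53 and 57.8 CPM against 63.5, 61.9 and 60 CPM (log2 0.15 ± 0.05, adjusted p = 0.027), and without siFOXA1_E2 replicate 1 its adjusted p was 0.07. Leaving out siER_E2 replicate 1, siER_E2 replicate 2 or siFOXA1_E2 replicate 2 gave 0.06, 0.12 and 0.083. Hypoxia and glycolysis genes were higher in 15 of 29 and lower in 4 (median 0.22, and 0.10 without replicate 1), with BNIP3L (log2 1.81) and SLC2A1, the glucose transporter (0.82), higher and EGLN3, an oxygen-sensing hydroxylase, lower (-2.02 ± 0.09). Interferon-response genes had 9 of 45 higher and 9 lower (median -0.01), near the shares of all genes. IRF1 (log2 -1.11), HLA-B (-0.64) and HLA-C (-0.65) were lower, and IFI44L was at 0.429, 1.08 and 0.094 CPM against 3.15, 2.62 and 0.517 CPM, overlapping libraries with an adjusted p of 0.038 that became 0.12 without replicate 1. Leaving out siER_E2 replicate 1, siER_E2 replicate 3 or siFOXA1_E2 replicate 2 gave 0.11, 0.13 and 0.1. The count of higher members was 5 without siER_E2 replicate 1 and 14 without siFOXA1_E2 replicate 3, and that of lower members was 14 without siFOXA1_E2 replicate 1. Immediate-early factors had 14 of 25 higher and 6 lower, with FOSL2 (1.41) and JUN (0.88) higher and EGR1 (-1.59 ± 0.30) lower. The p53 target list had 11 of 25 higher and 6 lower, the latter near the 22.9% of all genes. The BCL2 family had 7 of 17 higher and 6 lower, including the survival genes BCL2 (6.13 and 19.5 CPM, log2 1.67) and BCL2L1 (-0.68).

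**Figure D4:**
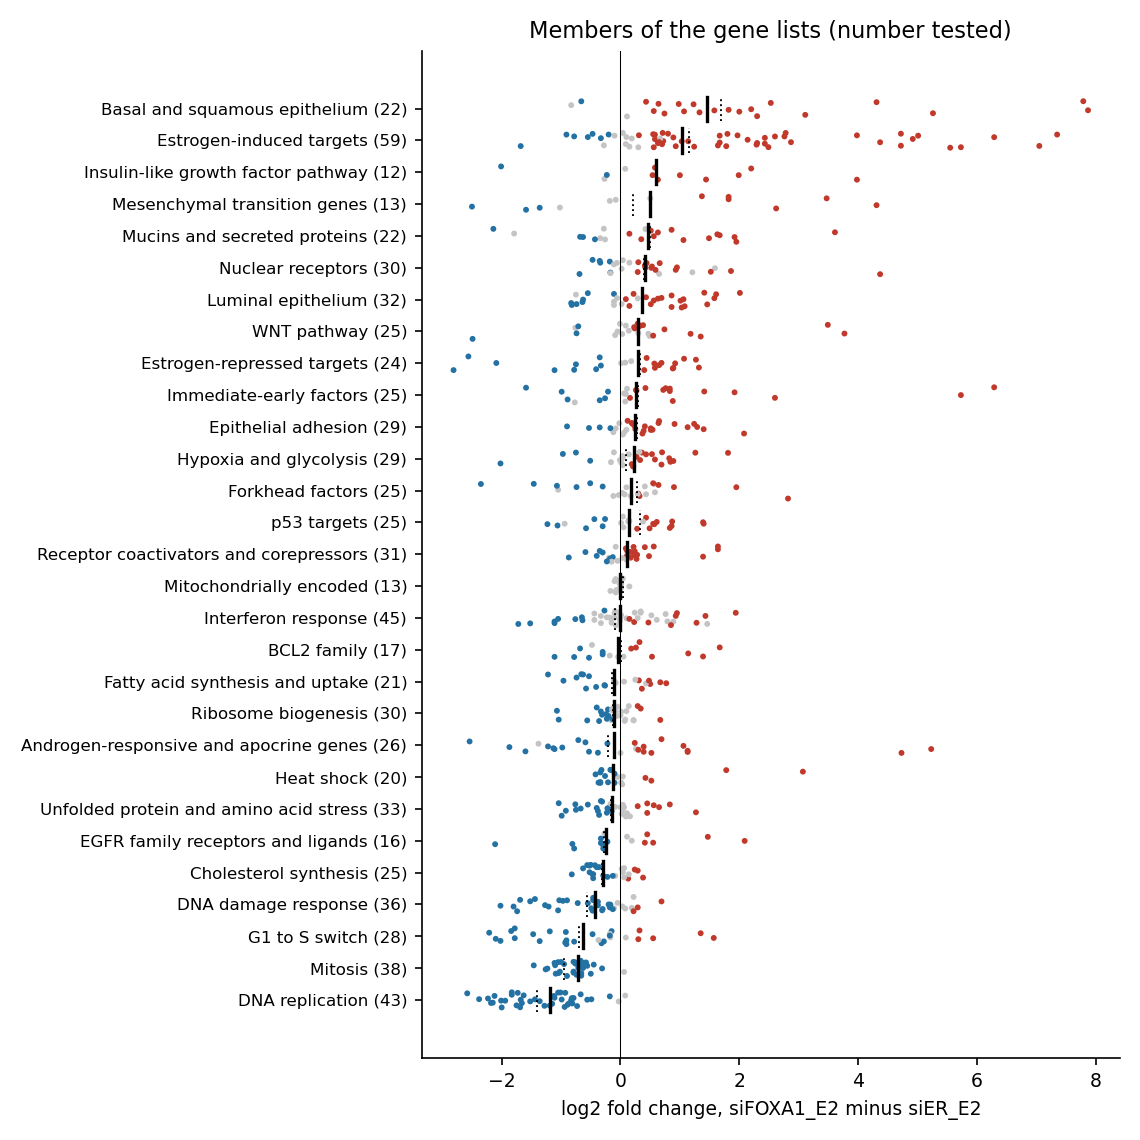
Log2 fold change of siFOXA1_E2 minus siER_E2 for each tested member of the gene lists with at least 5 tested members. Red points were called higher, blue points lower and grey points not called, the thick bar is the list's median, and the dotted bar is the median without siFOXA1_E2 replicate 1. Basal (median 1.45) and estrogen-induced genes (1.03) lie farthest right, and DNA replication (-1.19) and mitosis (-0.72) farthest left.

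The same difference was measured in MM134 and HCC1428, which share no library with MM330. Across genes, which are not independent, the MM330 difference had a Pearson's r of 0.388 with MM134 (15706 genes) and 0.552 with HCC1428 (16027 genes), with Spearman's rho of 0.259 and 0.413. Genes higher in both MM330 and MM134 numbered 1881, which is 50.3% of the MM330 calls and 43.6% of the MM134 calls among genes tested in both. For HCC1428 the number was 1823, or 47.6% and 51.9%. Lower genes were shared at 1665 (43.3% and 40%) and 1612 (41.4% and 44.2%). Of the genes higher in MM330, 671 (17.9%) were called lower in MM134 and 451 (11.8%) in HCC1428. Of those lower in MM330, 874 (22.7%) were called higher in MM134 and 457 (11.7%) in HCC1428. For background, 27.4% of the genes tested in both were called higher in MM134 and 21.9% in HCC1428, and 26.5% and 22.8% were called lower. The interaction test called 7219 of 21447 genes different from MM134 (33.7%) and 6230 different from HCC1428 (29%).

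ESR1 itself differed more in MM330. It differed by log2 3.23 in MM330, 0.83 in MM134 and 0.85 in HCC1428, and the difference between lines was 2.38 ± 0.08 against each (adjusted p = 1.3e-24 and 6e-25). FOXA1 differed by -2.04 in MM330 and -2.28 in both others, with interactions of 0.22 ± 0.07 (adjusted p = 0.0099) and 0.23 ± 0.07 (adjusted p = 0.0087). Without siFOXA1_E2 replicate 1 these were 0.14 (adjusted p = 0.078) and 0.15 (adjusted p = 0.064), and without HCC1428 siER_E2 replicate 1 the latter was 0.18 (adjusted p = 0.05). The part of this larger ESR1 difference in the line differences that follow was not tested. TFF1 was higher in siFOXA1_E2 than siER_E2 in MM330 (1.67) but lower in MM134 (-0.71) and HCC1428 (-0.32), with interactions of 2.35 ± 0.19 and 1.97 ± 0.13. MYC had 5.73, 1.69 and 0.72, with interactions of 4.04 ± 0.22 and 5.02 ± 0.21, and PDZK1 had 4.72, 1.19 and 2.79, with interactions of 3.55 ± 0.28 and 1.96 ± 0.25. KRT13 exceeded both lines (4.32 ± 1.22 and 5.88 ± 0.39), although without MM134 siER_E2 replicate 2 the former was 3.85 (adjusted p = 0.075), and SYNPO2L exceeded both as well (5.28 ± 0.38 and 2.51 ± 0.47). GREB1 had 2.43 in MM330, 0.94 in MM134 and 2.78 in HCC1428, so for this gene MM330 exceeded MM134 (1.47 ± 0.08) but not HCC1428 (-0.35 ± 0.08).

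E2F2, a driver of S phase, was lower in MM330 (-2.21) but higher in MM134 (0.34) and HCC1428 (0.36), with interactions of -2.59 ± 0.17 (adjusted p = 3.8e-16) and -2.60 ± 0.17 (adjusted p = 7.7e-16). RRM2 and CDC6 were at 0.14 and 0.39 in MM134 and -0.15 and -0.18 in HCC1428. The interactions with MM134 were -2.74 ± 0.21 for RRM2 and -2.80 ± 0.15 for CDC6, and those with HCC1428 were -2.45 ± 0.21 and -2.22 ± 0.16. FAM83A and PTGES, a prostaglandin synthase, also had lower values in MM330 than in the other lines, but neither was called lower in MM330. FAM83A was not called in MM330 (-0.10) and was higher in MM134 (4.06) and HCC1428 (2.61). PTGES had 0.71 in MM330, 4.51 in MM134 and 2.34 in HCC1428. Of the lowest genes, BCAS1 and SRARP were lower in all 3 lines: BCAS1 had -2.81, -4.57 and -3.10 in MM330, MM134 and HCC1428, and SRARP -3.09, -3.25 and -2.58.

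**Figure D5:**
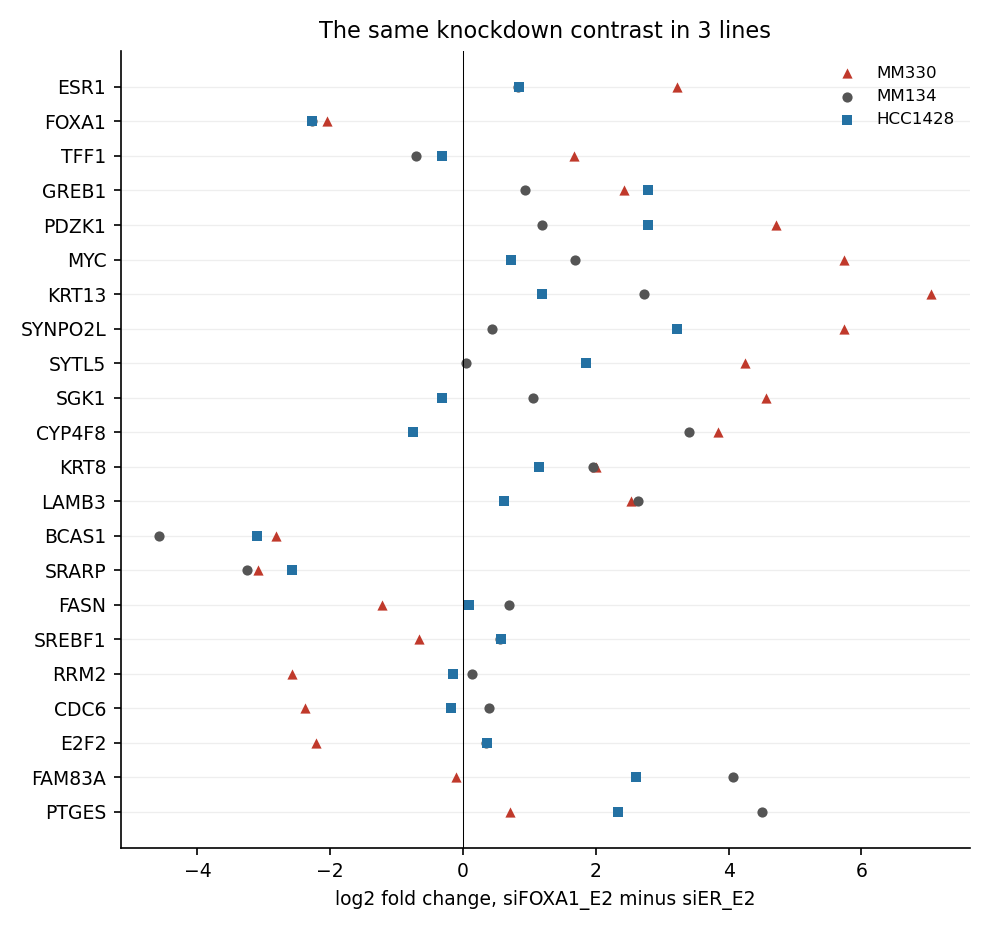
Log2 fold change of siFOXA1_E2 minus siER_E2 in MM330 (triangles), MM134 (circles) and HCC1428 (squares) for 22 named genes, from the fit of each line. ESR1, TFF1, MYC and KRT13 lie farther right in MM330 than in the other lines, FOXA1 is at -2.04, -2.28 and -2.28, and RRM2, CDC6 and E2F2 lie left of 0 in MM330 by more than 2 and near 0 in the others.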

How the data were processed

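PolyA RNA of MM330, MM134 and HCC1428 cells was sequenced, and the authors deposited whole-number read counts per gene for 45 libraries in a single table, per the labels. Alignment with STAR 2.6.0a to GRCh38 is named in the submitters' processing notes. The counting tool, its annotation and its strand setting are not given in the sources used here, so reads of overlapping and antisense genes cannot be assigned with certainty. Of 57353 symbols, 56598 matched GENCODE 29, and 27 had been turned into dates by a spreadsheet (0.195% of counts).

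Groups came from the labels. Counts were scaled by TMM, filtered by filterByExpr and tested with edgeR 4.0.16 (quasi-likelihood test, R 4.3.3) over all 15 libraries of MM330, with Benjamini-Hochberg adjustment over all tested genes and a threshold of 0.05. CPM values are counts scaled to the TMM-adjusted library size. Differences between lines were interaction contrasts of a fit of all 45 libraries. Intervals and limits from a count of 0 cover counting error only. Named genes were ESR1, FOXA1 and MDC1, the 12 highest and 12 lowest protein-coding called genes with at least 10 CPM in a group and libraries that do not overlap, up to 4 called members of each of 32 lists by smallest p with the largest in the other direction, a panel of receptor and luminal genes, and the leading 5 genes each way of each line difference. Other list members were chosen after their values were seen. The members and lists were chosen with earlier results of these data known.

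Same-numbered siFOXA1_E2 and siER_E2 libraries had deviation correlations of -0.00537, -0.00347 and 0.000157, so the numbers were not treated as pairs. Alternatives were other scaling, no count filter, a replicate block, each library left out, a term for or removal of libraries with a higher pseudogene share, DESeq2 1.42.0, limma-voom (limma 3.58.1) and a fit of the 6 libraries alone. On simulated counts for siFOXA1_E2 minus siER_E2 (17441 genes), the test recovered 29 of 67 genes changed 1.5-fold, 48 of 67 changed 2-fold and 57 of 66 changed 4-fold, with 8 unchanged genes called. A few members of the gene lists were counted with their lists, and their own values are not reported here.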

Additional observations from a re-analysis of the deposited data

Results flagged for a closer look

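These results differed between cell lines by an interaction test of siFOXA1_E2 minus siER_E2 (edgeR quasi-likelihood test, adjusted p below 0.05), and values are MM330 minus the other line on the log2 scale. The targets ESR1 (2.38 against MM134 and 2.38 against HCC1428) and FOXA1 (0.22 and 0.23) differed from both lines. So did the estrogen-induced genes TFF1 (2.35 and 1.97), GREB1 (1.47 and -0.35), MYC (4.04 and 5.02), PDZK1 (3.55 and 1.96) and KRT13 (4.32 and 5.88). FAM83A was lower in MM330 than in either line (-4.15 and -2.70). SYNPO2L (5.28 and 2.51), the vesicle transport gene SYTL5 (4.18 and 2.38) and the kinase gene SGK1 (3.49 and 4.86) were higher in MM330 than in either line. PTGES (-3.82 and -1.63), E2F2 (-2.59 and -2.60) and the signalling inhibitor gene SPRY4 (-1.46 and -3.30) were lower than in either. The cytochrome P450 gene CYP4F8 (4.59) and the zinc finger gene ZNF107 (-2.84) differed from HCC1428, and their differences from MM134, 0.43 (adjusted p = 0.18) and -0.06 (adjusted p = 0.81), did not pass the test. Without MM134 siER_E2 replicate 2 the SYTL5 difference from MM134 was 3.50, and without HCC1428 siER_E2 replicate 3 the SPRY4 difference from HCC1428 was -2.67. In libraries with a lower pseudogene share the CYP4F8 difference from HCC1428 was 5.30.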

How the results depend on the processing

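Of the counts that answer a comparison, 4 moved by more than 1.5 times under the alternatives run. Without a filter on low counts 1254 genes were 2-fold or more lower, against 766, and 1304 were higher, against 1161. In libraries with a lower pseudogene share only, which leaves fewer libraries, 2207 E2-responsive genes were called, against 3339. There, 357 E2-lowered genes were higher and 579 lower, against 632 and 900. Genes called in all ranged from 7337 to 8464 when each library was left out. With the replicate number as a block, 8014 genes were called (8190 without it). The block changed no call of a named gene. Among 300 results for single genes and lists, no called gene changed sign under these alternatives, 28 values fell short of the threshold, 2 passed it newly, for ZNF107, and 51 counts or medians of lists moved. Medians of lists did change sign: that of the mesenchymal list from 0.50 to -0.03 with limma-voom, that of the endothelial list from 2.40 to -0.01 without the count filter, and those of the interferon, BCL2 and mitochondrially encoded lists, all near 0, in at least 1 alternative each. Those that fell short were of TFF3, IFI44L, EREG, FOXJ1 and the line differences of FOXA1 and KRT13, and their causes were not tested. RLE scaling moved the median of all genes from -0.015 to -0.013. In the simulated counts, with 3 libraries a group, changes under 2-fold were often missed. Far fewer genes changed there than were called here, so that recovery does not measure the sensitivity of this comparison. Genes near 10 counts have wide errors.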

Other observations

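Several long noncoding RNAs, chosen here after their values were seen, differed between the knockdowns. Of 970 lincRNA genes tested, 190 were higher and 80 lower in siFOXA1_E2 (27.8% called), and of 1298 antisense genes 222 were higher and 82 lower (23.4% called). Both shares were below those of all tested genes (45.9%) and of protein-coding genes (54.7%). PCAT14 was at 326, 336 and 315 CPM in siER_E2 and 44.8, 20.3 and 20.8 CPM in siFOXA1_E2 (log2 -3.54 ± 0.19), with means of 356 CPM in siNT and 88.3 CPM in siNT_E2. LINC01814 was at 40.6, 38.6 and 39.6 CPM against 7.81, 3.08 and 4.02 CPM (log2 -3.03 ± 0.18). For both, siFOXA1_E2 replicate 1 was the library nearest to siER_E2, and without it the differences were -3.99 and -3.46. LINC01016 was at 1.54, 0.787 and 0.595 CPM against 11.3, 9.27 and 10.2 CPM (log2 3.42 ± 0.20) and averaged 53.6 CPM in siNT_E2. DSCAM-AS1, a luminal noncoding RNA, was at 6.50, 6.26 and 6.80 CPM against 24.2, 27 and 28 CPM (log2 2.02 ± 0.10), above its siNT_E2 mean of 15 CPM.

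Several protein-coding and receptor-locus genes outside the lists also differed. TRGC1, a constant segment of the T cell receptor gamma locus, was at 108, 113 and 110 CPM in siER_E2 and 15.9, 8.94 and 8.98 CPM in siFOXA1_E2 (log2 -3.33 ± 0.14), in libraries where CD3D, CD3E and PTPRC had no count. The neighbouring ATPase genes ATP13A4 and ATP13A5 were both lower: ATP13A4 averaged 6.83 and 0.402 CPM (log2 -4.05 ± 0.16), and ATP13A5 had 645 counts in the siER_E2 libraries and 4 in the siFOXA1_E2 libraries. SLC6A14, an amino acid transporter, was at 7.54, 5.34 and 5.67 CPM against 98.1, 107 and 108 CPM (log2 4.08 ± 0.10), above its siNT_E2 mean of 45.7 CPM. KCNK12, a potassium channel of the same family as KCNK5, was at 1.46, 1.28 and 0.752 CPM against 17.7, 19.7 and 19.5 CPM (log2 4.03 ± 0.22), with 0.927 CPM in siNT_E2.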
